A study of Mus musculus with 6 samples.

Results

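The genes of the transcription factor AP-1 are described here across primary chondrocytes (cartilage cells) of neonatal mice. Members were taken from the deposited table by gene symbol: Fos, Fosb, Fosl1 and Fosl2 of the Fos family, Jun, Junb and Jund of the Jun family, and the related factors Atf3 and Batf3. All 9 were present among the 47480 genes of the table. WT mice, the C57BL/6 background strain, were compared with A2ARKO mice, knockouts of the adenosine receptor gene Adora2a that share the strain background and animal facility. Each library holds RNA from trypsinized chondrocytes pooled over an entire litter, with 3 libraries per genotype and no treatment given in the labels. The study asked what drives osteoarthritis, and its design text names a search for enriched transcription factor binding sites. A replicate is a litter pool, so p-values measure the spread between pools, whatever its source.

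AP-1 is a pair of proteins that hold each other through leucine zippers and grip DNA with the basic regions beside them. Jun proteins pair with themselves or with Fos proteins, whereas Fos proteins need a Jun partner. Mitogens, cytokines and mechanical stress induce these genes through MAP kinases, Fos and Jun early and Fosl1, which encodes Fra-1, later. In joint tissue AP-1 is known as a regulator of matrix metalloprotease genes.

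AP-1 pairs bind the TPA response element, searched here as TGANTCA with any base at N, and the cAMP response element, whose core is TGACGT. A spacing of 8 bases, TGANNTCA, is also bound. RefSeq promoter windows on GRCm38.p6, from 250 bases before to 50 after a start, matched 8 of the 9 members, all except Fosl1. The 150 bases before the start are shown for Jun and Junb, whose values in A2ARKO lay above WT, and for Fos, whose groups overlapped. Capitals mark any of these 3 elements or a TATA box (TATAAA), searched on both strands, and a full cAMP element counts under both of the last 2.
Jun, chr4:95052223-95052372, minus strand: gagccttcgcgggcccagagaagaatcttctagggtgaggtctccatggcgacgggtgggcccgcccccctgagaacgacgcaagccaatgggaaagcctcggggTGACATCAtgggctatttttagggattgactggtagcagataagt
Junb, chr8:84978749-84978898, minus strand: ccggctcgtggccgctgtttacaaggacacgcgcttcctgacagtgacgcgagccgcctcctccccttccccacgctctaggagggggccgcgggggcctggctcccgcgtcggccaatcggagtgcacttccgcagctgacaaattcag
Fos, chr12:85473740-85473889, plus strand: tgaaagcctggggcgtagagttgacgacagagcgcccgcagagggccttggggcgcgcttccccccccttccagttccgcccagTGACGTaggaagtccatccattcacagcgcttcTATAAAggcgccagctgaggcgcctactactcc
The Jun promoter held TGACATCA from position -45 and Fos held TGACGT from -66, counted from the start with -1 as the base before it. Neither these 2 nor the Junb window held TGANTCA. In the 50 bases after the start, which are not shown, Jun held TGAGCTCA from position 3 and Junb held TATAAA from position 1. Over all 32851 promoter windows, TGANTCA stood in 7.81%, TGANNTCA in 14.1% and TGACGT in 7.51%. A match is a description of the sequence only.

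Before the results, the libraries themselves differed. Estimated depth ran from 41.6 to 58.1 M reads per library. Adora2a checked the labels: it read 9.36, 7.31 and 3.46 FPKM in WT against 0.41, 0.54 and 0.66 FPKM in A2ARKO (log2 difference -2.25, limma adjusted p = 0.0203). FPKM are fragments counted per kilobase of gene, scaled to library size. WT replicate 1 stood apart by its summed chondrocyte markers, 27140 FPKM over 14 genes against 1381 and 499 in WT replicates 2 and 3 and 2351, 4752 and 6684 in A2ARKO replicates 1, 2 and 3. In WT replicate 3, Matn1, Matn3 and Snorc (listed as 3110079O15Rik) were below 1 FPKM, so some defining cartilage genes were near absent there. WT replicate 2 stood apart by macrophage and leukocyte markers, 1944 FPKM against 26.6 to 186 in the other 5 libraries, and by skeletal muscle markers, 958 FPKM against 7.59 to 27.9. Of the macrophage and leukocyte markers, 9 of 11 tested lay below WT in every A2ARKO library, against 14.9% of all tested genes. By limma, 0 were called and 8 had an unadjusted p below 0.05, as did 24.7% of all tested genes. Fibroblast markers summed to 6452 to 9376 FPKM in WT against 3419 to 4803 FPKM in A2ARKO, mostly from Col1a1, Col1a2 and Col3a1. Of the 9 markers, 2 were called lower, against 1.77% of all tested genes. The log2 difference was positive for 4 of the 9, largest for Dcn at 1.15. Of the other lists, 3 of 5 endothelial, 5 of 7 keratinocyte and 5 of 5 erythroid markers were below 1 FPKM in every library.

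**Figure D1:**
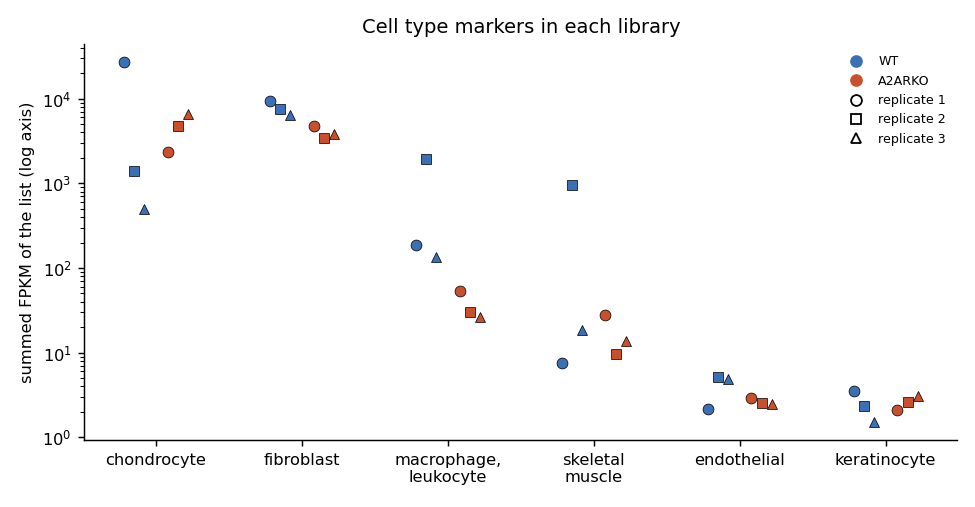
Summed FPKM of 6 lists of cell type markers (log axis) in each library, WT in blue and A2ARKO in orange, with a marker shape for each replicate. WT replicate 1 is highest for chondrocyte markers at 27140 FPKM, and WT replicate 2 for macrophage and muscle markers at 1944 and 958 FPKM.

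Fosl1 was the AP-1 gene that rose in A2ARKO chondrocytes. Of the 7 members tested, 1 rose, 0 fell and 6 did not pass the test across all genes (limma, adjusted p below 0.05), where 3.31% of 11595 tested genes were called higher and 1.77% lower, 5.08% in all. Fosb and Batf3 were below the filter, an FPKM of 1 in at least 3 libraries, while the other 7 were above 1 FPKM in every library. Fosl1, Fosl2, Jun and Junb, 4 of the 7, had A2ARKO values above all WT values, against 18.0% of all tested genes; none of the 7 lay below WT throughout, against 14.9%. The same 4 had an unadjusted p below 0.05, as did 24.7% of all tested genes. The median log2 difference of the 7 was 0.62, and that of all tested genes was 0.002. In bulk RNA, fewer cells of a type and less RNA per cell cannot be told apart. After rescaling the libraries to the same FPKM sum, the share of higher among called genes moved from 65.2% to 51.1%.

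**Figure D2:**
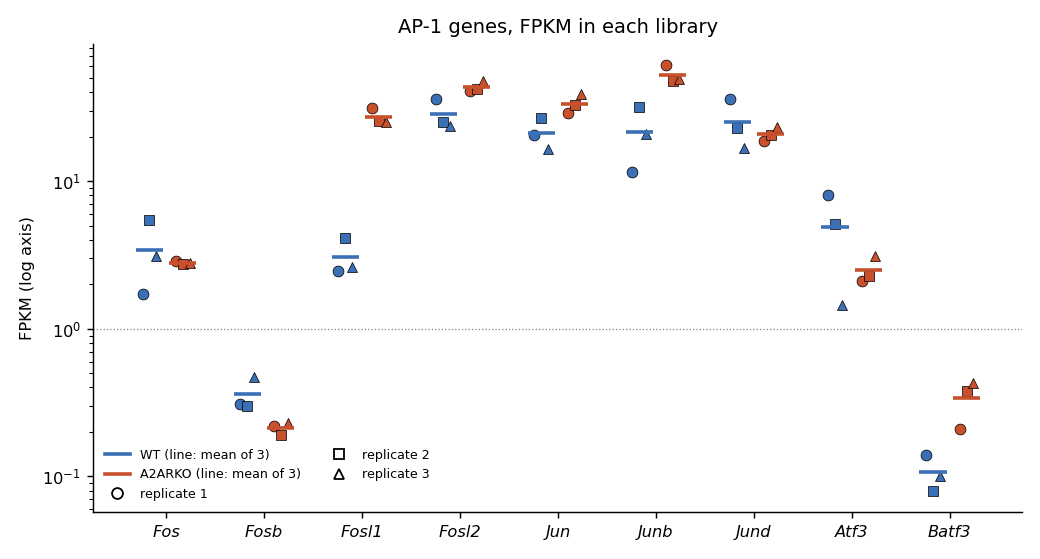
FPKM of the 9 AP-1 genes in each library on a log axis, WT in blue and A2ARKO in orange, horizontal lines at the mean of 3 libraries, dotted line at 1 FPKM. Fosl1 separates the genotypes most widely, from 2.46 to 4.09 FPKM in WT to between 25.26 and 31.17 FPKM in A2ARKO.

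Fosl1 (ENSMUSG00000024912.6; GRCm38 chromosome 19, 5447547 to 5455946, plus strand, 4 exons) read 2.46, 4.09 and 2.62 FPKM in WT replicates 1, 2 and 3 and 31.17, 25.71 and 25.26 FPKM in A2ARKO replicates 1, 2 and 3. Every A2ARKO library was several times above every WT library, and WT replicate 2 was the highest of WT. The mean rose from 3.06 ± 0.899 to 27.4 ± 3.29 FPKM (SD, n = 3), a ratio of 8.96. On the log2(FPKM + 1) scale the difference was 2.82 with a standard error of 0.17 and a 95% interval of 2.40 to 3.25 (limma adjusted p = 0.00318). It ranked 9 by p and 33 by size of rise among 11595 genes. With each library left out in turn the difference stayed between 2.72 and 3.00 and the limma adjusted p between 0.00597 and 0.030.

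Fosl1 shares exon bases with a neighbouring gene. The 3′ part of Fosl1 lies inside an exon of Ccdc85b on the minus strand, which covers 1163 of the 2033 Fosl1 exon bases, 57.2%, in GENCODE M21. Ccdc85b itself read 15.98, 20.32 and 21.44 FPKM in WT against 37.85, 27.54 and 25.27 FPKM in A2ARKO, a log2 difference of 0.61 (limma adjusted p = 0.112). No source used here gives the strand setting of the counting, and without strand, reads of the shared bases cannot be assigned to either gene. Their part in the Fosl1 values was not tested.

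Fosl2, which encodes Fra-2 and was the most abundant Fos family gene in every library, did not pass over all 6 libraries. It read 36.11, 25.37 and 23.70 FPKM in WT against 40.73, 42.46 and 47.58 FPKM in A2ARKO, without overlap. WT replicate 1 came close to the A2ARKO libraries, and the other 2 WT libraries were well below. The mean was 28.4 ± 6.735 FPKM in WT and 43.6 ± 3.56 FPKM in A2ARKO (SD, n = 3), a log2 difference of 0.62 with a 95% interval of 0.20 to 1.04 (limma adjusted p = 0.0945). Without WT replicate 1, the library high in chondrocyte markers, it was called at a log2 difference of 0.80 (limma adjusted p = 0.0204), and without each of the others the adjusted p was 0.152 to 0.282.

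Fos, the founding immediate early gene of the family, overlapped between genotypes. Its FPKM was 1.71, 5.44 and 3.09 in WT and 2.89, 2.74 and 2.80 in A2ARKO. WT libraries lay on both sides of the A2ARKO libraries, which differed among themselves by a ratio of 1.055 from highest to lowest, against 3.18 in WT. The log2 difference was -0.12 with a 95% interval of -0.86 to 0.61 (limma adjusted p = 0.842), and it was 0.19 without WT replicate 2. Fosb, which can take the place of Fos in a pair with Jun, was low throughout, at 0.31, 0.30 and 0.47 FPKM in WT against 0.22, 0.19 and 0.23 FPKM in A2ARKO. Each A2ARKO value was below each WT value, on roughly 69 to 154 reads a library. Tested with no filter, its log2 difference was -0.16 (limma adjusted p = 0.277).

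Junb, a Jun protein that can restrain or replace Jun in a pair, showed the widest gap of the Jun family. Its FPKM was 11.46, 31.78 and 21.02 in WT and 61.04, 47.81 and 49.20 in A2ARKO. The groups did not overlap, but WT libraries spread over a ratio of 2.77, with WT replicate 2 highest. The mean was 21.4 ± 10.2 FPKM in WT and 52.7 ± 7.27 FPKM in A2ARKO (SD, n = 3), a ratio of 2.46 and a log2 difference of 1.36 with a 95% interval of 0.52 to 2.20, and did not pass (limma adjusted p = 0.0803). Leaving out WT replicate 1 gave a limma adjusted p of 0.0519 and leaving out WT replicate 2 one of 0.0533, against 0.122 to 0.224 for the other libraries. Of the 2301 Junb exon bases, 173 are shared with Prdx2 on the other strand, which read 41.69 to 60.73 FPKM in WT against 55.95 to 66.55 FPKM in A2ARKO.

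Jun, the main partner of the Fos proteins, also lay higher in every A2ARKO library without passing the test. It read 20.44, 26.66 and 16.54 FPKM in WT against 28.99, 32.76 and 38.82 FPKM in A2ARKO. The closest libraries of the groups, WT replicate 2 and A2ARKO replicate 1, were near each other. The log2 difference was 0.65 with a 95% interval of 0.18 to 1.12 (limma adjusted p = 0.110). The antisense gene Junos, which shares 232 exon bases with Jun, was at 0.29 to 0.84 FPKM.

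Jund, usually the steadiest of the Jun genes, overlapped between genotypes at 36.11, 23.01 and 16.75 FPKM in WT against 18.70, 20.46 and 23.42 FPKM in A2ARKO. The log2 difference was -0.21 with a 95% interval of -0.86 to 0.45 (limma adjusted p = 0.689), and it was 0.08 without WT replicate 1. Gm11175, on the other strand, shares 877 of its exon bases (52.6%) and was at 0.49 to 0.88 FPKM. Atf3, a stress-induced factor that pairs with Jun proteins, read 8.05, 5.12 and 1.45 FPKM in WT against 2.11, 2.27 and 3.11 FPKM in A2ARKO. WT spanned a ratio of 5.55 and enclosed all A2ARKO values, at a log2 difference of -0.57 with a 95% interval of -1.71 to 0.58 (limma adjusted p = 0.511). Batf3, a Jun partner best known from dendritic cells, was at 0.14, 0.08 and 0.10 FPKM in WT against 0.21, 0.38 and 0.43 FPKM in A2ARKO, on roughly 6 to 36 reads a library. Its A2ARKO values were all above WT, and with no filter its log2 difference was 0.27 (limma adjusted p = 0.151). By two-sided exact permutation test, p was 0.1, the lowest value possible with 3 libraries per genotype, for the 6 members whose groups did not overlap, and p = 0.7, 0.7 and 0.4 for Fos, Jund and Atf3.

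**Figure D3:**
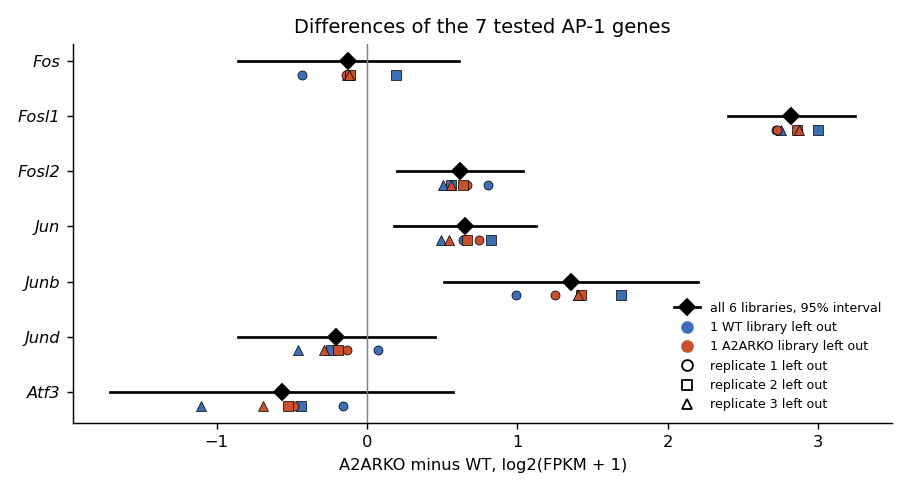
Difference between A2ARKO and WT on the log2(FPKM + 1) scale for the 7 tested AP-1 genes, with diamonds and bars for all 6 libraries and their 95% intervals, and small markers for fits with 1 library left out. Fosl1 stays between 2.72 and 3.00, while Fos and Jund each change sign without 1 WT library.

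Fosl2, Jund and Atf3, 3 of the members, ordered the libraries within each genotype as the summed chondrocyte markers did. WT replicate 1 was highest of WT and A2ARKO replicate 3 highest of A2ARKO. The share of all tested genes with this order was not counted. Fos, Fosl1, Jun and Junb were instead highest of WT in replicate 2, the library with the most macrophage and muscle marker RNA. The part of cell composition in these values was not tested. For Fosl1, leaving out WT replicate 1 gave a log2 difference of 2.72 and leaving out WT replicate 2 gave 3.00, against 2.82 with all libraries. The spread among libraries was smaller in A2ARKO than in WT for 7 of 7 tested members, as SD of log2(FPKM + 1). The same SD had a median of 0.192 (WT) and 0.097 (A2ARKO) over all tested genes.

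Summed over the family, Fos genes stood at 40.6, 35.2 and 29.9 FPKM in WT against 75.0, 71.1 and 75.9 FPKM in A2ARKO. Fosl2 made up 80.1% ± 8.47 of that sum in WT and 58.9% ± 4.26 in A2ARKO (SD, n = 3). Fosl1 made up 6.06%, 11.6% and 8.77% in WT against 41.55%, 36.2% and 33.3% in A2ARKO, and Fos 4.21%, 15.45% and 10.34% in WT against 3.69 to 3.85% in A2ARKO. Among Jun genes, Jund held the largest share in WT replicate 1, at 53.1%, and Junb the largest in every other library. Junb made up 16.85%, 39.0% and 38.7% in WT and 56.1%, 47.32% and 44.15% in A2ARKO, and the share of Jun was 30.05 to 32.73% in WT against 26.66 to 34.83% in A2ARKO. The Fos family sum was 0.432 to 0.597 of the Jun family sum in WT and 0.681 to 0.704 in A2ARKO. These shares follow from the member values above and rest on the gene lengths the authors used.

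**Figure D4:**
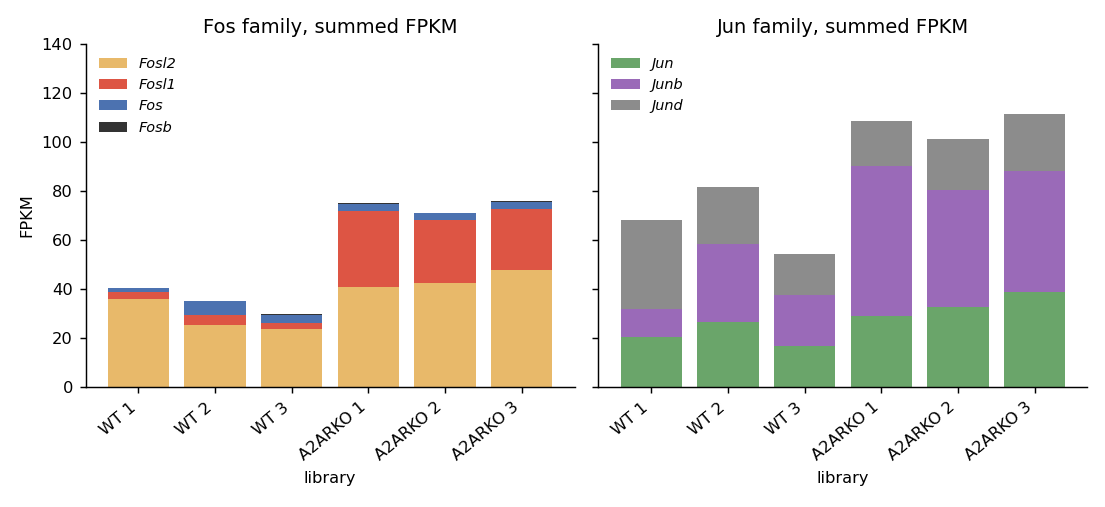
Stacked FPKM of the Fos family (left) and the Jun family (right) in each library. The Fosl1 layer grows from 6.06 to 11.6% of the Fos family in WT to between 33.3 and 41.55% in A2ARKO, and the Fos family sum lies at 71.1 to 75.9 FPKM in A2ARKO.

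By root-mean-square distance between log2(FPKM + 1) values over the 6 libraries, centred on the WT mean, the genes nearest to Fosl1 were Zc3h12a, which encodes a ribonuclease that degrades inflammatory mRNAs (distance 0.212), and Serpina3f, a serine protease inhibitor gene (0.218). Zc3h12a read 2.78, 5.53 and 4.40 FPKM in WT against 36.49, 35.98 and 42.43 FPKM in A2ARKO. Nearest to Junb were Icam1, an adhesion molecule gene (0.127), and Tnfrsf1b, which encodes a TNF receptor (0.156). Icam1 read 11.69, 29.13 and 18.13 FPKM in WT against 50.16, 46.81 and 52.16 FPKM in A2ARKO, with the same WT library highest as for Junb. Nearest to Jun were Gdf6 and Gpi1, to Fosl2 Bscl2 and Gapdh, to Fos Vegfb and Fam96a, to Jund Atf6 and Nsun4, and to Atf3 Gfra2 and Cobl, at distances of 0.031 to 0.169. Within the family, Fosl1 had no close fellow: Junb was nearest at 1.07, while Jun and Fosl2 were 0.259 apart.

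Other bZIP proteins, which share the leucine zipper and can compete for or join AP-1 pairs, moved in both directions. Of 19 tested, 3 rose, 2 fell and 14 did not pass (median log2 difference -0.21). Among all tested genes, 3.31% were called higher and 1.77% lower. Maff, a small Maf protein gene, rose from 3.82 ± 0.309 to 17.4 ± 3.76 FPKM (SD, n = 3; limma adjusted p = 0.00628). Cebpb, a C/EBP factor of inflammatory gene induction, and Nfe2l2, which encodes the antioxidant regulator Nrf2, rose at log2 differences of 1.43 and 0.52. Jdp2, an AP-1 repressor that pairs with Jun, fell from 44.1 ± 9.72 to 21.9 ± 3.05 FPKM (limma adjusted p = 0.0429), and Atf5 fell at a log2 difference of -1.20. Maff passed with any library left out, whereas Jdp2 and Cebpb lost the call without any 1 of the A2ARKO libraries, and Jdp2 also without WT replicate 2. Atf5 lost it without A2ARKO replicate 2 or 3. Nfe2l2 passed in 1 of the 6 fits with a library left out, and its limma adjusted p was 0.2175 after rescaling to the same sum.

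The MAP kinase cascade, which phosphorylates and induces AP-1, had 2 of 21 tested members higher, 0 lower and 19 not past the test (median 0.08). All tested genes had 3.31% called higher and 1.77% lower. By limma, 7 of the 21 had an unadjusted p below 0.05. The 2 called were the kinase kinase kinase genes Map3k8 (1.44 ± 0.380 to 3.98 ± 1.06 FPKM) and Map3k5, at log2 differences of 1.02 and 0.60. Map3k8 did not pass whichever library was left out (limma adjusted p of 0.0576 to 0.162), and Map3k5 passed in 1 of 6 such fits; neither passed after rescaling to the same sum (0.0539 and 0.0604). Neither Mapk8 nor Mapk9, which encode JNK kinases, passed. Of 12 genes for factors that act at the Fos and Jun promoters, such as Srf, 0 were called by limma. An unadjusted p below 0.05 was found for 5, against 24.7% of all tested genes. Of these, Mef2a and Mef2c, with the smallest p, had log2 differences of -0.46 and -1.37, and Elk4 one of -0.26. Srf and Elk3 went the other way, at 0.42 and 0.33. Of 10 genes for AP-1 turnover and inhibition, Jdp2 alone was called.

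Textbook AP-1 target genes had 8 of 20 tested members higher, 0 lower and 12 not past the test. Of all tested genes, 3.31% were called higher and 1.77% lower. The median log2 difference of the targets was 0.84, and their list was chosen with earlier results of these data known. Mmp3, the gene of the matrix protease stromelysin-1, read 5.57, 72.95 and 10.56 FPKM in WT against 1170, 1713 and 3975 FPKM in A2ARKO. All A2ARKO libraries were far above WT, in which replicate 2 was highest (log2 difference 6.81, limma adjusted p = 0.0210). Ptgs2, encoding cyclooxygenase-2, rose from 1.40 ± 0.355 to 8.36 ± 0.632 FPKM (limma adjusted p = 0.00319). Among the others, Il6 (cytokine), Timp1 (metalloprotease inhibitor), Plaur (urokinase receptor), Ets1 (transcription factor) and Lif (cytokine) rose at log2 differences of 2.70, 1.74, 1.46, 0.82 and 0.81. Ptgs2 alone of the 8 passed without each A2ARKO library in turn, when 1 target was called, against 9 higher without each WT library. The collagenase gene Mmp13, chosen after its values were seen, read 211.02, 104.19 and 9.41 FPKM in WT against 265.91, 555.10 and 1086 FPKM in A2ARKO and did not pass (limma adjusted p = 0.168).

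**Figure D5:**
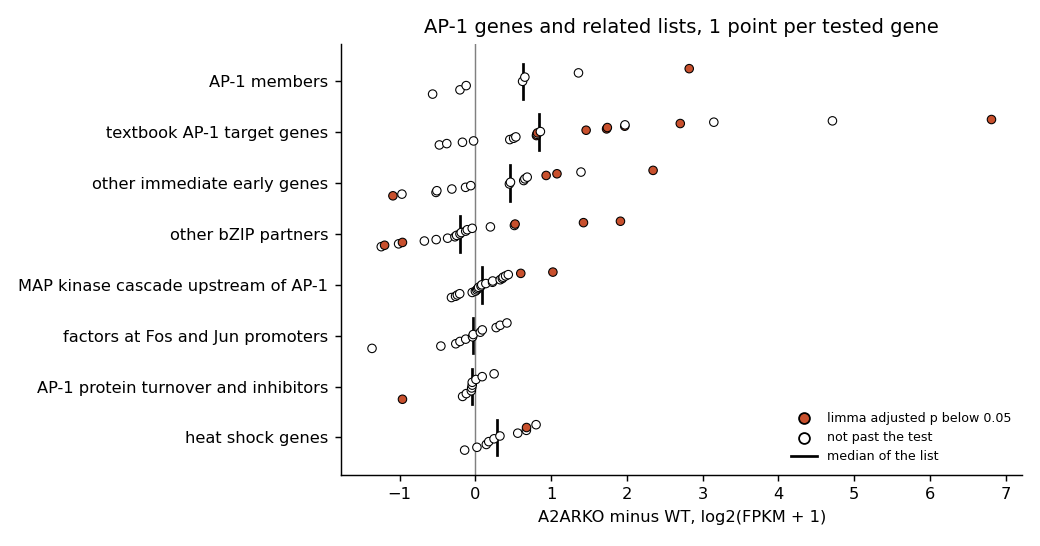
Difference between A2ARKO and WT for each tested gene of the AP-1 members and 7 related lists, filled where the limma adjusted p was below 0.05, with a line at each list's median. Textbook AP-1 targets reach 6.81 (Mmp3) with 8 of 20 filled, whereas the MAP kinase cascade centres on 0.08.

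Promoter windows were at hand for 14 of the 22 listed targets, and 8 of these held TGANTCA, 57.1%, against 8.97% of all genes with a window. Such sites are part of why these genes are known as AP-1 targets, so the share is a description. For TGANNTCA the shares were 7.14% of the 14 and 15.9% of all genes with a window. For TGACGT they were 28.6% and 8.37%, and for the TATA box 35.7% and 15.7%. Each TGANTCA site is shown with up to 10 bases on either side, the element in capitals. Each has G or C at N, whereas the shares count any base there. Sequences run 5′ to 3′ on the gene's strand (all plus except Il11) on GRCm38.p6.
Mmp3, chr9:7445766-7445792: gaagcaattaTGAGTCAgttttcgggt
Plaur, chr7:24462404-24462430: cccctggagcTGACTCActctttagca
Lif, chr11:4257330-4257356: cagtcagctgTGACTCAggccatagtg
Il6, chr5:30012864-30012881: cTGAGTCActtttaaaga
Mmp13, chr9:7272469-7272495: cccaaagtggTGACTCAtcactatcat
Sphk1, chr11:116531777-116531803: agcgtgtcgcTGAGTCAccttctcgga
Mmp10, chr9:7502269-7502295: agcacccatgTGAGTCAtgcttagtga
Il11, chr7:4778223-4778249: ggagggagggTGAGTCAggatgtgtca
The first 4 rose, Mmp13 and Sphk1 did not pass, and Mmp10 and Il11 were below the filter. Of the 6 targets whose window lacked the element, 2 rose and 4 did not pass. Over all tested genes with a window, TGANTCA stood in 519 of 8734 (5.94%), in 29 of the 284 called higher (10.2%) and in 9 of the 150 called lower (6.00%). TGANNTCA stood in 11.6% of tested genes, 12.0% of those called higher and 13.3% of those called lower. For TGACGT these shares were 13.7%, 10.6% and 16.0%. The TATA box, which is not an AP-1 element, had 8.415%, 12.7% and 11.3%. No test was made of these shares.

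Other immediate early genes, which answer the same stimuli as Fos and Jun, were split. Of 16 tested, Ier3, Btg2 and Ier5 rose at log2 differences of 2.35, 1.08 and 0.93, Klf2 fell at -1.09, and 12 did not pass (median 0.46). Ier3 passed with any library left out, whereas Btg2 lost the call without any 1 of the A2ARKO libraries, Klf2 without A2ARKO replicate 1 or 2 and Ier5 without A2ARKO replicate 2. Egr1, chosen after its values were seen as the usual companion of Fos, read 9.85, 19.05 and 12.11 FPKM in WT against 9.28, 9.20 and 8.21 FPKM in A2ARKO (limma adjusted p = 0.220), highest in the same WT library as Fos. Of 10 heat shock genes, Hsp90aa1 rose at a log2 difference of 0.67 and 9 did not pass. Hsp90aa1 passed in 2 of the 6 fits with a library left out, without WT replicate 1 or 3, and did not pass with no filter or after rescaling to the same sum (limma adjusted p = 0.1533 for the latter). Over the related lists together, 17 genes rose and 3 fell of 104 tested. All tested genes had 3.31% called higher and 1.77% lower. With 1 A2ARKO library left out, 3 to 5 genes of the related lists were called.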

How the data were processed

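RNA of 6 libraries was sequenced on an Illumina HiSeq, per the labels' protocols. The authors deposited 1 table of FPKM with 2 decimals. HTSeq and the mm10 build stand in the submitters' processing notes. The aligner, annotation, gene lengths and strand setting were "not given in the sources used here". Columns were assigned to samples by title. limma 3.58.1 under R 4.3.3 (intensity trend, two-sided) fitted the difference on log2(FPKM + 1), which understates changes of low genes, for the 11595 genes reaching 1 FPKM in 3 or more libraries, with Benjamini-Hochberg adjustment across all 11595. In simulated data over 11595 genes the same fit recovered 20%, 56%, 94% and 94% of genes changed by 0.5, 1, 2 and 4 log2 units. It made 11 false calls. The changed genes were drawn from those with a mean above about 5 FPKM, with 1 SD per gene for both genotypes. Values were drawn independently for each gene, whereas marker genes deviated together in WT replicates 1 and 2. False calls under such shared deviations were not simulated. Recovery of lower genes, such as Fos and Atf3, was not simulated. Depth came from short genes, whose values were whole reads within 0.1 read for at least 99.05% of values; reads per gene use GENCODE M21 lengths and are approximate, and cover counting only. No 2 libraries held identical values. Alternatives were another pseudocount, 2 other filters, 2 rescalings, a replicate block and each library left out. Named genes are the members, called genes of each list or else the 2 with the smallest p, and the nearest genes by distance, leaving out predicted genes. Members and lists were chosen with earlier results of these data known. Some list genes are counted but not reported here by name.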

Additional observations from a re-analysis of the deposited data

How the results depend on the processing

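Fosl1 kept its direction in all 12 alternatives and its call in 11, at log2 differences of 2.72 to 3.15; with a replicate block it was 2.82 at a limma adjusted p of 0.0607. Same-numbered libraries deviated in opposite directions from their genotype means (correlations of -0.521, -0.325 and -0.387). Deviations from a mean of 3 libraries depend on one another, so these correlations cannot decide whether the numbers pair litters. The sample titles give only a number. That block left 0 members called by limma, 4 of 7 having an unadjusted p below 0.05, 2 genes called in all and 0 in the related lists, with 2110 genes at an unadjusted p below 0.05. Of members, 1 to 2 were called with a library left out, Fosl2 joining at 0.80 without WT replicate 1. With a library left out, Fos lay between -0.43 and 0.194, positive only without WT replicate 2, and Jund between -0.455 and 0.077, positive only without WT replicate 1. The number of all genes called, 589, was 348 when libraries were rescaled to 1 FPKM sum and 213 without the filter. With a library left out it ran from 50 (without A2ARKO replicate 2) to 900 (without WT replicate 1). With quantile normalization 561 genes were called, 53.8% of them higher in A2ARKO. The related lists, 20 called, had 10 with no filter and 3 to 28 with a library left out. Adora2a stayed at -2.25 but missed the threshold with no filter (adjusted p = 0.0533) and with the block (0.121). With a library left out it lay between -2.60 and -1.99, and it missed the threshold in 4 of those 6 fits, without WT replicate 2 (0.0582) and without each A2ARKO library (0.0824 to 0.0955). Fos, Atf3 and Adora2a have no value under the filter at 5 FPKM. The fits with a library left out have fewer samples and the one with no filter tests more genes; for the block and the rescalings the cause was not tested.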

Other observations

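Gapdh, named as a near neighbour of Fosl2, read 1.91, 1.09 and 1.04 FPKM in WT against 2.64, 2.50 and 2.99 FPKM in A2ARKO, low for a glycolytic enzyme gene that every cell uses. It has many processed copies in the mouse genome, and no source used here says how reads matching several copies were handled. Fos was lower per length than Fosl2 in every library. Fosl1 lay below Fos in WT replicates 2 and 3, and above it in WT replicate 1 and in all A2ARKO libraries.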
